A study of Mus musculus with 45 samples.

Results

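Cubn, Amn, Lrp2 and Dab2 encode the endocytic machinery with which absorptive epithelia, among them the visceral endoderm around the early mouse embryo, take up protein from their surroundings. These 4 genes, of 18193 measured, are described here in murine embryonic stem cells (ESCs) and in the embryoid bodies (EBs) they form. They were chosen by their measured log2 levels, which exceeded those of the controls in late EBs of the line labelled as silenced for Strip2, and so all their values on days 8, 12 and 16, those of the controls included, are given as a description, with no test. The 4 genes carry 10 probe sets on the array, of 45037 in all, and each gene is represented by its probe set with the highest mean over the 45 arrays. The tests are on what the choice of the genes did not use, the ESCs and the EBs of day 4. The choice of the probe set did use these arrays.

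All cells were of strain 129 and male. The lines were KD, labelled as Strip2 silenced, SCR, labelled as carrying a scrambled control, and WT, wild type. Arrays were made from the undifferentiated ESCs of each line and from EBs grown by the hanging drop method for 4, 8, 12 and 16 days, which gives 15 groups with 3 arrays each. The labels name neither the construct nor the number of clones behind a line, and they do not say whether the 3 arrays of a group stem from different cultures. The p-values therefore reflect the scatter of these samples alone, and that scatter may be technical.

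Cubilin, the product of Cubn, is a large receptor with no membrane anchor of its own. Amnionless, the product of Amn, spans the membrane, carries cubilin to the cell surface and holds it there. Megalin, the product of Lrp2, is a giant member of the LDL receptor family that works beside the cubilin-amnionless complex, and Dab2 is a clathrin adaptor that binds the tails of such receptors and links them to coated pits. In the mouse embryo the visceral endoderm uses this machinery to take up maternal protein before a placenta works, and in the adult the proximal tubule of the kidney uses it to reclaim filtered protein and vitamin carriers.

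On the arrays, Cubn is represented by probe set 1452270_s_at (chr2:13276338-13491876, assembly GRCm38.p6), Amn by 1417920_at (chr12:111271096-111276426), Lrp2 by 1427133_s_at (chr2:69424335-69586029) and Dab2 by 1420498_a_at (chr15:6299788-6440715). The coordinates are those of the whole genes in the RefSeq table and not of the probes. All 4 genes were found in the RefSeq promoter table of the same assembly, Dab2 with 2 starts. The first 250 bases of each window, those before the start, are shown because all 4 genes were higher in KD-labelled EBs of day 4, with 5′ to 3′ along the gene and matches to the motifs named below in capitals. The gene table begins Dab2 at the last base of its first window, 1 base before the start that the promoter table uses.
Cubn, chr2:13491877-13492126, minus strand: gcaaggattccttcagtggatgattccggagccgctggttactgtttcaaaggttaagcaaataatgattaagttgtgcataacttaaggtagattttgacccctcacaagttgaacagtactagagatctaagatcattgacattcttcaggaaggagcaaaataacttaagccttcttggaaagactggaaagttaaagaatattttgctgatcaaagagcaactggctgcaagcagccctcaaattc
Amn, chr12:111270846-111271095, plus strand: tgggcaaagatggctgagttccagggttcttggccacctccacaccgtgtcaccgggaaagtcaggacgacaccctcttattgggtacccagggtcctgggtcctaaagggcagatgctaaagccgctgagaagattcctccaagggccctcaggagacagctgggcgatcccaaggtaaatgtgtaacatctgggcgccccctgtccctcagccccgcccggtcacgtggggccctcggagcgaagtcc
Lrp2, chr2:69586030-69586279, minus strand: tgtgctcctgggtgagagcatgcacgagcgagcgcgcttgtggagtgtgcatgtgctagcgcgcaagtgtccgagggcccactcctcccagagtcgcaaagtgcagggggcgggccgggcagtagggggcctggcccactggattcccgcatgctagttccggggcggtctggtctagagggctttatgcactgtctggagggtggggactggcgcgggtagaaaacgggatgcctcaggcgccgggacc
Dab2, first start, chr15:6299539-6299788, plus strand: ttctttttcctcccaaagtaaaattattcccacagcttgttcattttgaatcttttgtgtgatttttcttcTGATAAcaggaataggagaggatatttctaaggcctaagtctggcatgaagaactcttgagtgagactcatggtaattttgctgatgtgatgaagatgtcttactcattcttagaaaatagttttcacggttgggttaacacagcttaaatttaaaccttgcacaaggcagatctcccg
Dab2, second start, chr15:6386498-6386747, plus strand: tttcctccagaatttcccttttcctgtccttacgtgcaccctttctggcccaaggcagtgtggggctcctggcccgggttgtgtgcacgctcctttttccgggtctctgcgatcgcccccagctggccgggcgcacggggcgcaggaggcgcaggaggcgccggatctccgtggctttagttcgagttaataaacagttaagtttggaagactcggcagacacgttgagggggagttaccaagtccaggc
The windows differ in base composition, with a GC content of 39.6% for Cubn, 61.2% for Amn, 66.4% for Lrp2, and 36.8% and 60% for the starts of Dab2, against a median of 52.4% over 32851 such windows.

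The windows were searched on both strands for AGATAA and TGATAA, forms of the GATA motif, for CAAAGTCCA, a form of the HNF4 site, and for AGGTCA, the core of a nuclear receptor site, none of which overlap in these windows. TGATAA stands 179 to 174 bases before the first Dab2 start. No match lies in the window of the second Dab2 start or in those of Cubn, Amn or Lrp2. Over all windows of this length, AGATAA or TGATAA is found in 16.6%, AGGTCA in 14.0% and CAAAGTCCA in 0.4%. These matches describe letters and are not binding sites.

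Facts of the whole series that touch these results are few. The single Strip2 probe set, 1433847_at, had log2 levels of 2.66 to 3.86 over the 15 KD-labelled arrays, 2.54 to 5.6 over the SCR and 2.5 to 3.23 over the WT arrays. It stood below SCR in KD-labelled EBs of day 12 (log2 difference -0.92, limma adjusted p = 1e-04) and day 16 (-1.56, adjusted p = 8.6e-09). On these days it was also higher in SCR than in WT EBs, by 1.55 (adjusted p = 4.1e-07) and 1.97 (adjusted p = 1.3e-09). KD-labelled arrays were not lower than WT arrays by this test at any stage, and on day 12 they were higher (0.63, adjusted p = 0.0061). With a mean of 3.23 over all arrays the probe set lies near the bottom of the scale, where a fall below WT could not show. The label could therefore not be checked against WT, and the line goes by its label here. In all 3 lines, 1 array of the 8-day EBs is tagged ESC in another field, and it was kept as an 8-day EB, as its title says. Array medians lay between 5.02 and 5.18 log2 units and replicate arrays correlated at 0.9888 to 0.9961. Bulk arrays cannot tell more cells of a type from more RNA per cell. The number of arrays limits the precision of each value.

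The first comparison asks whether the 4 genes already stood apart on day 4, the earliest EBs measured. All 4 did: on day 4 each was higher in KD-labelled EBs than in both controls, Cubn and Lrp2 by log2 differences of 3.66 to 3.98 and Amn and Dab2 by 1.61 to 2.24. The 4 of 4 called up compare with 22.6% of all genes called up against SCR and 19.2% against WT on that day. In each of the 4 genes all 3 KD-labelled arrays lay above all 6 control arrays, as they did for 20.0% of all genes. The day 4 arrays were not used to choose the genes, but they come from the same lines as the late EBs.

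Cubn stood at log2 levels of 7.64, 8.09 and 7.65 in KD-labelled EBs of day 4, at 3.9, 3.87 and 3.8 in SCR EBs and at 4.03, 4.37 and 3.99 in WT EBs. The KD-labelled arrays lay at least 3.27 log2 units above the highest control array. KD minus SCR was 3.94 (SE 0.32, 15.3-fold, limma adjusted p = 7e-13) and KD minus WT was 3.66 (12.7-fold, adjusted p = 5.5e-12).

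Amn, the membrane partner of cubilin, stood at 6.35, 6.82 and 6.88 in KD-labelled EBs of day 4, at 5.05, 4.72 and 4.84 in SCR EBs and at 4.92, 5.14 and 5.16 in WT EBs. Again no array of the controls reached a KD-labelled one, with a gap of 1.19. The difference was 1.81 from SCR (SE 0.19, 3.51-fold, adjusted p = 4.5e-10) and 1.61 from WT (3.05-fold, adjusted p = 8e-09).

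Lrp2 was even among the KD-labelled EBs of day 4, at 8.26, 8.32 and 8.32, while the SCR EBs stood at 4.74, 4.1 and 4.51 and the WT EBs at 5.03, 3.91 and 4.03. The gap between KD-labelled and control arrays was 3.23. KD minus SCR came to 3.85 (SE 0.28, 14.4-fold, adjusted p = 5.1e-14) and KD minus WT to 3.98 (15.7-fold, adjusted p = 2.6e-14).

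For the adaptor Dab2 the day 4 levels were 8.74, 8.77 and 8.87 in KD-labelled EBs, 6.37, 6.72 and 6.58 in SCR EBs and 7.49, 6.77 and 6.78 in WT EBs. The groups did not overlap, with the first WT array closest to the KD-labelled ones at a distance of 1.25. The difference was 2.24 from SCR (SE 0.24, 4.71-fold, adjusted p = 1.1e-09) and 1.78 from WT (3.43-fold, adjusted p = 1.7e-07). Under the 100 alternative settings of these 8 day 4 values, each kept its direction and its call.

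**Figure D1:**
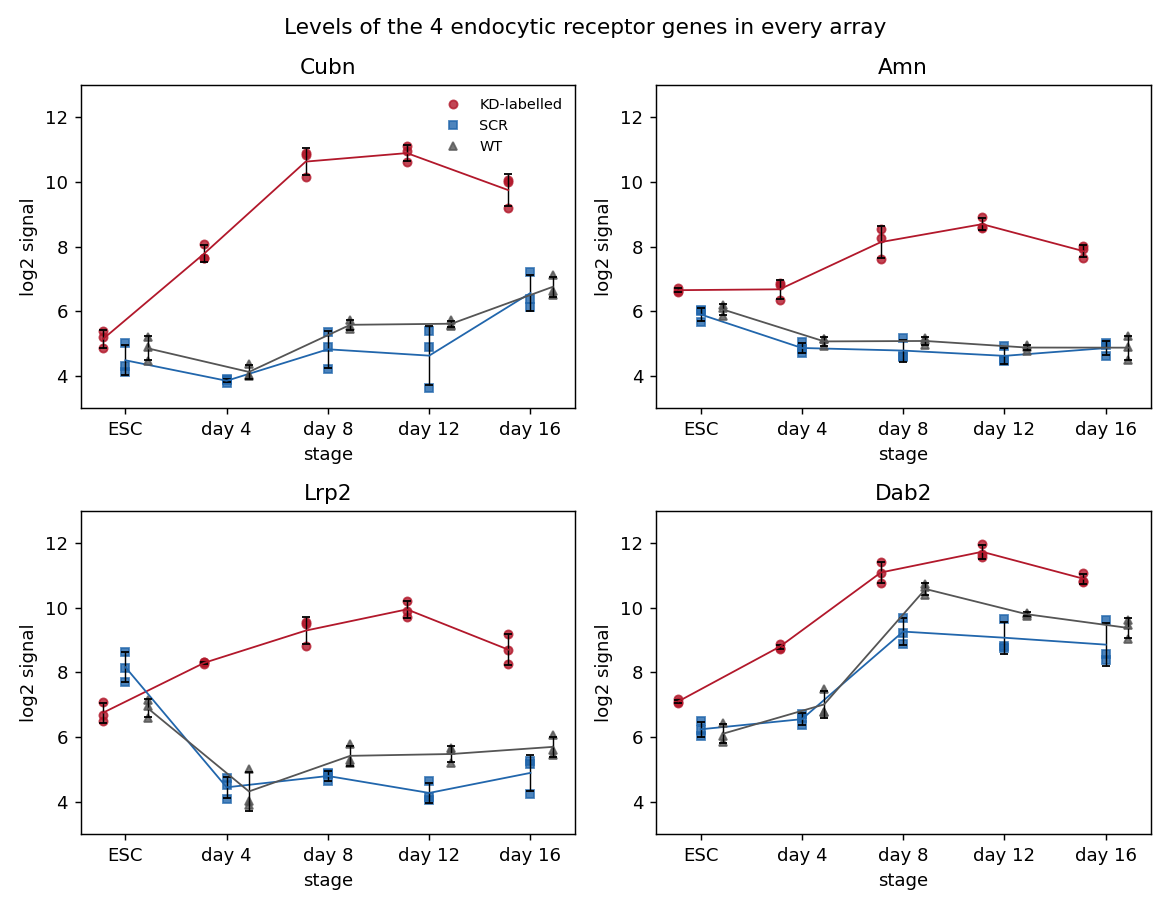
Log2 signal of Cubn, Amn, Lrp2 and Dab2 (y axis) at 5 stages (x axis) in KD-labelled, SCR and WT cells, with a point for each array, lines through the group means and black bars for the SD of 3 arrays. From day 4 on, every KD-labelled array lies above the control arrays of its stage, least clearly for Dab2 on day 8, where 10.78 stands against 10.73.

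In ESCs the picture differed between the genes. Amn and Dab2 were higher in KD-labelled ESCs than in both controls, Lrp2 was lower than in SCR, and the differences of Cubn did not pass the test. Against SCR, 2 of the 4 genes were called up (12.3% of all genes) and 1 down (11.3%). Against WT, 2 were called up (8.66% of all genes) and none down (9.78%). The 3 KD-labelled arrays exceeded all 6 controls in Amn and Dab2, as in 9.64% of all genes.

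Amn stood at 6.61, 6.73 and 6.63 in KD-labelled, at 6.02, 5.67 and 6.03 in SCR and at 6.21, 6.1 and 5.87 in WT ESCs. Its difference was 0.75 from SCR (SE 0.19, limma adjusted p = 0.0029) and 0.6 from WT (adjusted p = 0.024). Dab2 stood at 7.09, 7.06 and 7.17 in KD-labelled, at 6.49, 6.03 and 6.21 in SCR and at 6.03, 6.43 and 5.86 in WT ESCs. The difference was 0.86 from SCR (SE 0.24, adjusted p = 0.0076) and 1 from WT (adjusted p = 0.0029). These ESC calls rest on few arrays. Leaving out the arrays numbered 2 in every group put Amn at 0.6 from SCR (adjusted p = 0.1) and 0.58 from WT (adjusted p = 0.13), and Dab2 at 0.78 from SCR (adjusted p = 0.063). Without the arrays numbered 3, Amn stood at 0.52 from WT (adjusted p = 0.18), and Dab2 at 0.81 from SCR (adjusted p = 0.11) and 0.84 from WT (adjusted p = 0.12). No other Dab2 probe set was called in ESCs, and 1423805_at gave -0.08 from WT.

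Lrp2 was high in ESCs of the SCR line, at 8.64, 7.71 and 8.14, against 7.1, 6.5 and 6.67 in KD-labelled and 6.97, 7.14 and 6.58 in WT ESCs. KD-labelled and WT arrays were interleaved and the SCR arrays lay above both. KD minus SCR was -1.41 (SE 0.28, adjusted p = 2e-04) and KD minus WT was -0.14 (adjusted p = 0.81). The dim Lrp2 probe set 1445901_at gave 0.22 from SCR. Cubn stood at 5.2, 4.86 and 5.39 in KD-labelled, at 4.13, 5.02 and 4.32 in SCR and at 4.89, 5.22 and 4.47 in WT ESCs, where the 3 ranges overlap. Its differences of 0.66 from SCR (adjusted p = 0.14) and 0.29 from WT (adjusted p = 0.62) did not pass. Without the arrays numbered 2, the difference from SCR was 1.07 (adjusted p = 0.049).

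The change between ESCs and day 4 was tested within the KD-labelled line, and then against that of each control. In KD-labelled cells Cubn rose by 2.64 (SE 0.32, limma adjusted p = 6.9e-08), Dab2 by 1.69 (SE 0.24, adjusted p = 2e-06) and Lrp2 by 1.54 (SE 0.28, adjusted p = 6.9e-05), while Amn differed by 0.03 (SE 0.19, adjusted p = 0.95). The 3 genes called up compare with 12.4% of all genes. Over the same days Amn fell by 1.04 in SCR (adjusted p = 2.3e-05) and by 0.99 in WT cells (adjusted p = 4.8e-05).
The difference of the changes was largest for Lrp2, which rose in KD-labelled cells and fell in both controls. Between ESCs and day 4, the Lrp2 change in KD-labelled cells exceeded that in SCR cells by 5.26 (SE 0.4, limma adjusted p = 4.8e-13) and that in WT cells by 4.12 (adjusted p = 2e-10). For Cubn the excess was 3.28 over SCR (SE 0.45, adjusted p = 3.9e-07) and 3.37 over WT (adjusted p = 2e-07), and for Amn it was 1.06 (SE 0.27, adjusted p = 0.0025) and 1.01 (adjusted p = 0.0035). Dab2, which rose in WT cells too, had an excess of 1.37 over SCR (SE 0.35, adjusted p = 0.0023) and of 0.78 over WT (adjusted p = 0.09), which did not pass. In either direction, such changes were called in 26.5% of all genes against SCR and in 29.8% against WT. Called up were 13.7% and 14.6%. The 2 comparisons share the KD-labelled arrays.

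The later EBs are those in which the genes were chosen, and their values are described without a test. On days 8, 12 and 16, all 3 KD-labelled arrays exceeded all 6 control arrays in each of the 4 genes, which is what the choice asked for. The same order held for 25.7%, 26.6% and 34.0% of all genes on these days.

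Cubn stood at 10.15, 10.9 and 10.84 in KD-labelled EBs of day 8, against 5.36, 4.9 and 4.23 in SCR and 5.75, 5.47 and 5.54 in WT EBs. On day 12 it stood at 10.97, 11.1 and 10.61 in KD-labelled, at 3.62, 5.38 and 4.9 in SCR and at 5.58, 5.72 and 5.56 in WT EBs. On day 16 the KD-labelled EBs were lower, at 10, 10.06 and 9.19, and the controls higher, at 7.21, 6.13 and 6.37 in SCR and 6.64, 6.52 and 7.12 in WT EBs. The differences were 5.8, 6.26 and 3.18 from SCR and 5.04, 5.27 and 2.99 from WT on days 8, 12 and 16. The KD-labelled arrays of days 8 and 12 overlap, those of day 16 lie below both, and those of day 4 lie lower still.

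Amn stood at 7.61, 8.56 and 8.26 in KD-labelled EBs of day 8, against 4.61, 4.58 and 5.18 in SCR and 4.95, 5.13 and 5.18 in WT EBs. The day 12 levels were 8.58, 8.91 and 8.6 in KD-labelled against 4.47, 4.49 and 4.92 in SCR and 4.91, 4.95 and 4.79 in WT EBs. On day 16 they were 8.01, 7.66 and 7.92 in KD-labelled against 4.96, 5.02 and 4.62 in SCR and 4.5, 4.89 and 5.25 in WT EBs. The order of the KD-labelled groups was day 12, then days 8 and 16, which overlap, then ESCs and day 4, which overlap too. The differences were 3.35, 4.07 and 3 from SCR and 3.06, 3.81 and 2.98 from WT. The control EBs of all 4 days lay between 4.47 and 5.25.

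Lrp2 stood at 8.81, 9.51 and 9.56 in KD-labelled EBs of day 8, against 4.87, 4.9 and 4.63 in SCR and 5.3, 5.19 and 5.78 in WT EBs. Its highest levels were those of day 12, with 10.22, 9.91 and 9.72 in KD-labelled against 4.05, 4.15 and 4.63 in SCR and 5.19, 5.59 and 5.66 in WT EBs. Day 16 gave 9.19, 8.68 and 8.25 in KD-labelled against 5.27, 5.17 and 4.25 in SCR and 5.59, 5.45 and 6.06 in WT EBs. The KD-labelled arrays of day 16 overlap with those of days 4 and 8. The differences were 4.49, 5.67 and 3.81 from SCR and 3.87, 4.47 and 3.01 from WT.

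Dab2 was the gene in which the controls came closest. On day 8 it stood at 10.78, 11.08 and 11.41 in KD-labelled, at 9.69, 9.23 and 8.87 in SCR and at 10.38, 10.73 and 10.63 in WT EBs, so that only 0.05 log2 units separated the KD-labelled from the WT arrays. On day 12 the levels were 11.98, 11.56 and 11.65 in KD-labelled against 8.82, 9.64 and 8.76 in SCR and 9.82, 9.73 and 9.85 in WT EBs, and the gap was 1.71. On day 16 they were 11.07, 10.79 and 10.83 in KD-labelled against 9.63, 8.38 and 8.57 in SCR and 9.62, 9.03 and 9.48 in WT EBs. The differences were 1.83, 2.66 and 2.04 from SCR and 0.51, 1.93 and 1.52 from WT.

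**Figure D2:**
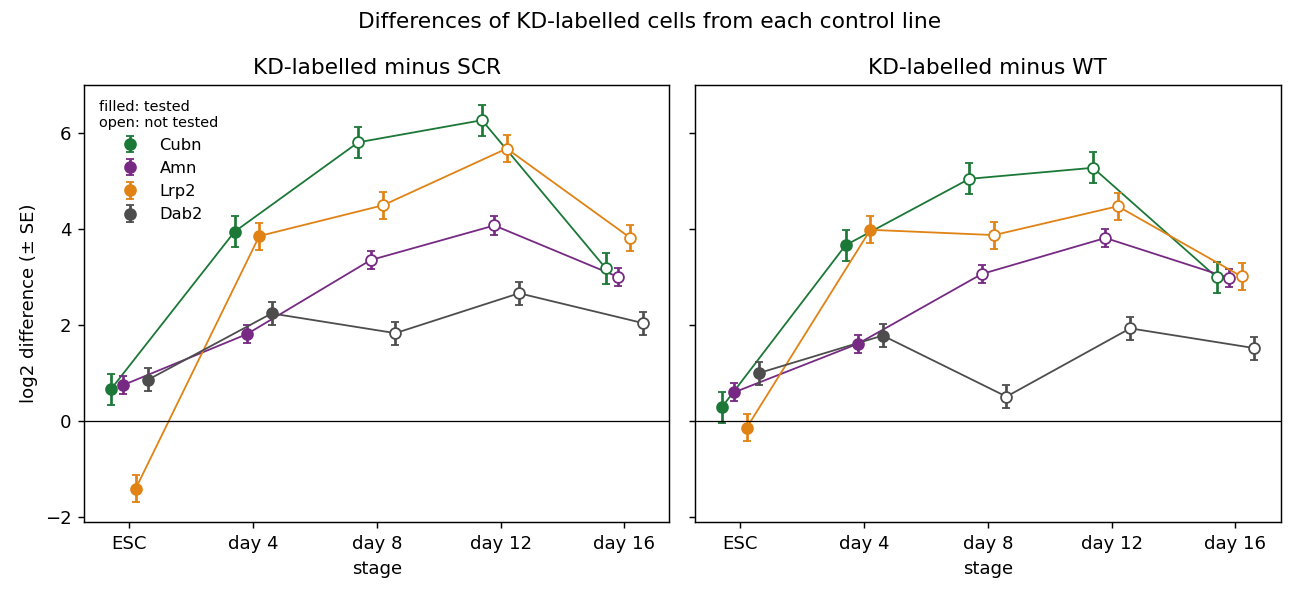
Mean log2 difference (y axis) of each of the 4 genes at each stage (x axis), KD-labelled minus SCR on the left and KD-labelled minus WT on the right, with bars for the SE of the fit over 3 arrays a group. Filled points were tested and open points, on days 8, 12 and 16, were not; on day 12 the differences from SCR run between 2.66 for Dab2 and 6.26 for Cubn.

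In the controls the 4 genes took different courses. By day 4 Lrp2 and Amn had fallen in both control lines and Dab2 had risen in WT. In SCR cells 0 of the 4 genes were called up on day 4 by limma (20.6% of all genes) and 2 down (21.9%), and in WT cells 1 was called up (21.4%) and 2 down (20.3%).

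Dab2 was called up on day 4 in WT EBs relative to WT ESCs (0.91, SE 0.24, limma adjusted p = 0.0025), and the difference of 0.31 in SCR EBs did not pass (adjusted p = 0.34). On days 8, 12 and 16, described without a test, it stood above ESCs by 3.02, 2.83 and 2.62 in SCR and by 4.47, 3.69 and 3.27 in WT EBs.

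Lrp2 fell by 3.71 in SCR EBs (SE 0.28, limma adjusted p = 1.4e-13) and by 2.57 in WT EBs of day 4 (adjusted p = 1.2e-09), each relative to its ESCs. Its untested differences on days 8, 12 and 16 were -3.36, -3.89 and -3.27 in SCR and -1.47, -1.42 and -1.2 in WT EBs. Those of Amn lay between -1.28 and -1.04 in SCR and between -1.18 and -0.97 in WT EBs on these days. The choice of genes that were lower in late control EBs than in KD-labelled ones favours such values.

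Cubn differed from ESCs on day 4 by -0.63 in SCR (SE 0.32, limma adjusted p = 0.11) and -0.73 in WT EBs (adjusted p = 0.066), and neither passed. The untested differences on days 8, 12 and 16 were 0.34, 0.14 and 2.08 in SCR and 0.73, 0.76 and 1.9 in WT EBs. The day 16 EBs of both controls overlap, at 6.13 to 7.21 in SCR and 6.52 to 7.12 in WT EBs.

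The controls were also set against each other. Lrp2 was higher in SCR than in WT ESCs (1.27, SE 0.28, limma adjusted p = 0.0025), where 4.43% of all genes were called up. Without the arrays numbered 3 this difference was 1.12 (adjusted p = 0.053). None of the 4 passed this limma test on day 4, where 1.93% of all genes were called. On the later days, described without a test, the 12 differences of SCR from WT EBs lay between -1.32 for Dab2 on day 8 and -0.01 for Amn on day 16. Lrp2 stood at -1.2 and Cubn at -0.99 on day 12.

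The further probe sets of Cubn, Lrp2 and Dab2 give a check on the choice of the brightest, and Amn has no other. On day 4 all 6 were higher in KD-labelled EBs than in both controls and passed the test, though by different amounts. Cubn 1426990_at differed by 2.51 from SCR and 2.31 from WT, and Lrp2 1452320_at by 4.72 and 4.84. Lrp2 1445901_at differed by 0.57 and 0.63, and its group means of 4.41 to 4.72 in KD-labelled and 3.77 to 4.42 in control cells lie near the bottom of the scale. The Dab2 probe sets 1423805_at, 1429693_at and 1430604_a_at differed by 1.16, 1.02 and 0.92 from SCR and by 0.84, 1.23 and 0.89 from WT.

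In the later EBs, described without a test, 35 of 36 differences of further probe sets had the sign of the brightest one. The exception is Dab2 1423805_at on day 8, with means of 9.44 ± 0.34 in KD-labelled against 8.74 ± 0.54 in SCR and 10.07 ± 0.08 in WT EBs (SD, n = 3 each), a difference of -0.62 from WT. With 1430604_a_at the same comparison gave 1.16 and with 1429693_at it gave 0.5. The direction of Dab2 against WT on day 8 therefore depends on the probe set.

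**Figure D3:**
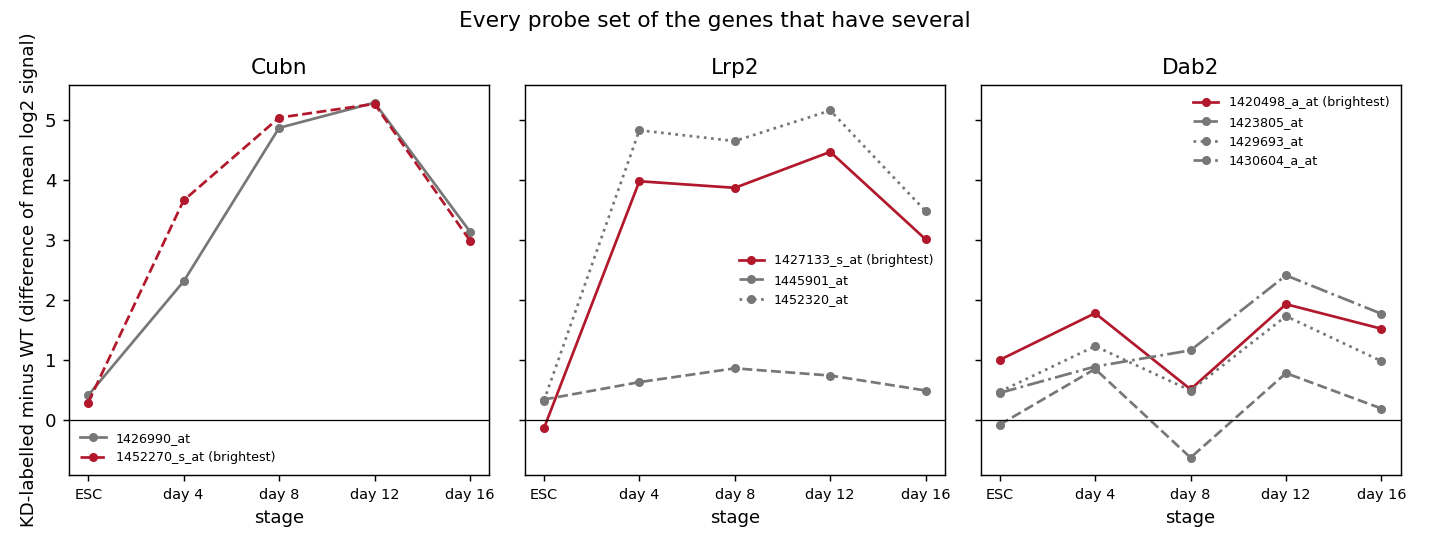
Mean log2 difference of KD-labelled minus WT cells (y axis) at each stage (x axis) for every probe set of Cubn, Lrp2 and Dab2, the brightest of each gene in red. On day 12 the Lrp2 probe sets run between 0.74 for 1445901_at and 5.16 for 1452320_at, and on day 8 the Dab2 probe sets run between -0.62 and 1.16.

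Over the 15 group means the genes pair unevenly. Pearson's r was 0.94 for Amn with Lrp2, 0.84 for Cubn with Amn, 0.8 for Cubn with Lrp2, 0.78 for Cubn with Dab2, 0.44 for Amn with Dab2 and 0.38 for Dab2 with Lrp2. Over the 5 KD-labelled means alone all 6 values lay between 0.89 and 0.99, which the choice of genes high in late KD-labelled EBs largely fixes. Over the 10 control means the values were 0.86 for Amn with Lrp2, -0.22 for Cubn with Amn, 0.06 for Cubn with Lrp2, 0.63 for Cubn with Dab2, -0.66 for Amn with Dab2 and -0.39 for Dab2 with Lrp2. These are descriptions over means that share stages and arrays.

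The genes most like each member over the 15 group means, among 9047 genes whose means span at least 1 log2 unit, are named as a description. That they too are highest in late KD-labelled EBs largely follows from the choice of the members. For Cubn they were Dram1 (r = 0.99), Srgn, the core protein of a secretory granule proteoglycan (0.975), and Klb, a co-receptor for FGF hormones (0.967). For Amn they were Porcn, which acylates Wnt ligands (0.98), Kcnu1 (0.976) and Crxos (0.975). For Dab2 they were P2rx4, an ATP-gated channel (0.972), Erlin1 (0.962) and Ctsl, the lysosomal protease cathepsin L (0.961), and for Lrp2 they were Taf7l (0.958), Shb (0.952) and Stx3, a membrane fusion protein (0.952). The mean of the 4 genes was most like Srgn (0.99), Dram1 (0.966), Mroh1 (0.956), Ccpg1 (0.951) and Klb (0.951). Over the 45 arrays, 11 of these 17 pairs still led.

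The ligands of cubilin and megalin and the chaperone of megalin form the next group, with 10 of 12 listed genes measured. On day 4, 5 of the 10 were called up against both controls and 0 down by limma, beside 17.6% and 16.8% of all genes. The median difference of the list was 0.68 from SCR and 0.54 from WT, beside 0.03 and -0.01 for all genes. Apob, the backbone of lipoproteins, was higher by 1.9 and 1.87, Apoe, a carrier of lipids, by 1.82 and 1.64, Clu, a secreted chaperone, by 1.35 and 1.03, and Ttr, the carrier of thyroid hormone, by 1.31 and 2.03. Between KD-labelled ESCs and day 4, limma called Ttr up (4.73), while Apob (1.49), Apoe (-0.13) and Clu (0.07) were not called. In SCR and WT cells the same change was called down for Apoe (-0.68 and -1.55) and Clu (-2.15 and -0.71). Ttr was called up there too (3.65 and 2.75).

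On day 8, 2 of 10 were called up against both controls and 5 down (23.1% and 21.0% of all genes), on day 12, 1 up and 4 down (24.1% and 19.8%), and on day 16, 2 up and 6 down (31.8% and 23.1%). Alb, serum albumin, was lower on day 16 by log2 differences of -9.46 from SCR and -8.75 from WT, and Apoa1, the main protein of high-density lipoprotein, by -5.35 and -4.76. Rbp4, the carrier of retinol, stood at -3.31 and -5 on day 8. Such values compare lines and not stages. Within the KD-labelled line the mean level of Rbp4 was 5.28 in ESCs, 6.99 on day 8 and 8.7 on day 16. Over the same stages Ttr stood at 3.48, 9.4 and 11.74, Apob at 3.83, 5.08 and 6.8, and Clu at 8.22, 9.08 and 10.02. Alb (3.96, 3.7 and 4.02) and Apoa1 (4.82, 4.73 and 5.34) changed less by day 16.

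Lrpap1 encodes the chaperone that keeps megalin and its relatives from binding ligands during their synthesis. Among the 10 it was the gene called up against both controls at all 5 stages, which was noticed after its values were seen. Its mean level was 11.22, 11.23, 12.51, 12.62 and 12.17 in KD-labelled cells in the order ESC, day 4, 8, 12 and 16. The means were 10.18, 10.27, 10.84, 10.76 and 10.99 in SCR and 10.39, 10.33, 11.74, 11.14 and 11.22 in WT cells. KD minus SCR was 1.04, 0.95, 1.67, 1.86 and 1.18 and KD minus WT was 0.83, 0.9, 0.76, 1.48 and 0.95.

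Of the other LDL receptor family members, 11 of 12 were measured, and 1 of 11 was called up against both controls on day 4 and 4 down (17.6% and 16.8% of all genes). On day 8 the counts were 2 and 5 (23.1% and 21.0%), on day 12, 1 and 3 (24.1% and 19.8%), and on day 16, 2 and 5 (31.8% and 23.1%). The list's median difference on day 4 was -0.33 from SCR. Vldlr, a receptor for lipoproteins and reelin, stood at -3.06 from SCR and -2.76 from WT on day 4. It was called down against both controls in ESCs already. Between ESCs and day 4 limma called Vldlr up in KD-labelled (2.67), SCR (4.89) and WT cells (2.98). Lrp1, a broad scavenger receptor, stood at -1.32 and -1.26 on day 4, -2.53 and -2.61 on day 12 and -2.2 and -2.11 on day 16. Lrp8, another reelin receptor, was higher by 1.77 and 1.8 on day 8, 2.61 and 2.54 on day 12 and 1.97 and 1.61 on day 16. Sorl1, a sorting receptor, was higher by 1.12 and 1.05 on day 4.

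The general clathrin and recycling machinery, had 23 of 25 listed genes measured. On day 4, 5 of 23 genes were called up against both controls and 6 down (17.6% and 16.8% of all genes), and on day 8, 1 and 10 (23.1% and 21.0%). On day 12 the counts were 2 and 4 (24.1% and 19.8%), and on day 16, 2 and 6 (31.8% and 23.1%). The median difference from SCR lay between -0.23 and 0.02 at all stages. Myo6, a motor that carries endocytic vesicles, was higher on day 4 by 1.67 from SCR and 1.57 from WT, and Ehd1, which acts in recycling to the membrane, by 1.45 and 1.03. Ehd1 was also higher on day 12 (1.93 and 1.24) and day 16 (1.97 and 1.59). Cltb, a clathrin light chain, was higher on day 4 by 1.16 and 1.04, and Numb, another adaptor with a phosphotyrosine-binding domain, was lower (-1.51 and -1.24).

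Which cells carried the 4 endocytic genes was not tested, and they are set here beside other genes of visceral endoderm. Of the transcription factors that specify it, 8 of 10 were measured, and in ESCs 4 of 8 were called up against both controls and 0 down (5.84% and 6.28% of all genes). Gata6 was higher there by 2.34 from SCR and 2.56 from WT, Sox17 by 1.7 and 2.09, Hnf4a by 1.21 and 0.69, and Hhex by 1.08 and 0.66. On day 4, when the 4 endocytic genes were called up, 0 of 8 were called up and 5 down (17.6% and 16.8% of all genes). Sox17 stood at -3.56 and -3.92, Foxa1 at -3.35 and -3.28, Foxa2 at -2.41 and -2.26 and Gata4 at -2.05 and -2.36. On day 8, 3 of 8 were called up and 3 down (23.1% and 21.0%), on day 12, 3 and 2 (24.1% and 19.8%), and on day 16, 2 and 3 (31.8% and 23.1%). Sox7 was higher on day 8 (1.99 and 2.74) and Sox17 on day 12 (1.59 and 2.03), while Foxa1 was lower on day 12 (-3.47 and -3.2) and day 16 (-3.57 and -3.59). These are differences from controls. Within the KD-labelled line, limma called Foxa2 (1.66), Foxa1 (0.9) and Gata6 (0.62) up between ESCs and day 4. Sox17 (0.65) and Gata4 (0.22) were not called in that change. By day 12 limma called every measured factor up within the KD-labelled line, between 0.99 for Hnf4a and 4.77 for Sox17 (20.2% of all genes). Foxa1 rose there by 2.33, against 5.35 in SCR and 5.35 in WT EBs.

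Of the secreted and surface genes of visceral endoderm, 13 of 14 were measured, and 4 of them stand in the ligand list too. On day 4, 3 of 13 were called up against both controls and 1 down (17.6% and 16.8% of all genes), and on day 8, 2 and 6 (23.1% and 21.0%). On day 12 the counts were 4 and 3 (24.1% and 19.8%), and on day 16, 2 and 7 (31.8% and 23.1%). Rhox5, a homeobox gene of extraembryonic cells, was higher on day 4 (3.67 and 3) and day 12 (4.6 and 2.56). Afp, the fetal serum protein by which visceral endoderm is commonly recognised, was lower on day 12 (-4.7 and -4.84) and day 16 (-4.48 and -4.38). Cited1 was higher on day 12 (2.08 and 2.27). Relative to KD-labelled ESCs, limma called Afp up in KD-labelled EBs of day 12 (1.79) and day 16 (2.5). In WT EBs the change of Afp since ESCs was larger (6.77 and 7.02). Rhox5 was called up against both controls in ESCs already. Its change since ESCs in KD-labelled EBs was -1.03 on day 4, called down, and 0.23 on day 12, not called. In WT EBs it was -3.33 and -1.63, and in SCR EBs -1.28 and -0.95.

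Of 10 parietal endoderm genes, 2 were called up against both controls and 0 down in ESCs (5.84% and 6.28% of all genes), 1 and 6 on day 4 (17.6% and 16.8%) and 1 and 4 on day 8 (23.1% and 21.0%). On day 12 the counts were 6 and 2 (24.1% and 19.8%), and on day 16, 4 and 3 (31.8% and 23.1%). Lama1, a laminin chain of Reichert's membrane, was higher on day 12 by 3.6 from SCR and 2.59 from WT and on day 16 by 3.48 and 2.24. Plat stood at -2.31 and -1.22 on day 4. These are differences from controls. Between ESCs and day 4, limma did not call Plat within the KD-labelled line (0.25), against 2.45 in SCR and 1.84 in WT cells. Of the 4 parietal genes lower on day 8, Plat (2.34), Pth1r (2.51) and Sparc (1.68) were called up since KD-labelled ESCs. Nid1 was called down (-0.56). Pth1r, Sparc and Nid1 are named after their values were seen. The list's mean level on day 12 was 9.68 in KD-labelled against 9.06 in SCR and 9.35 in WT EBs.

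**Figure D4:**
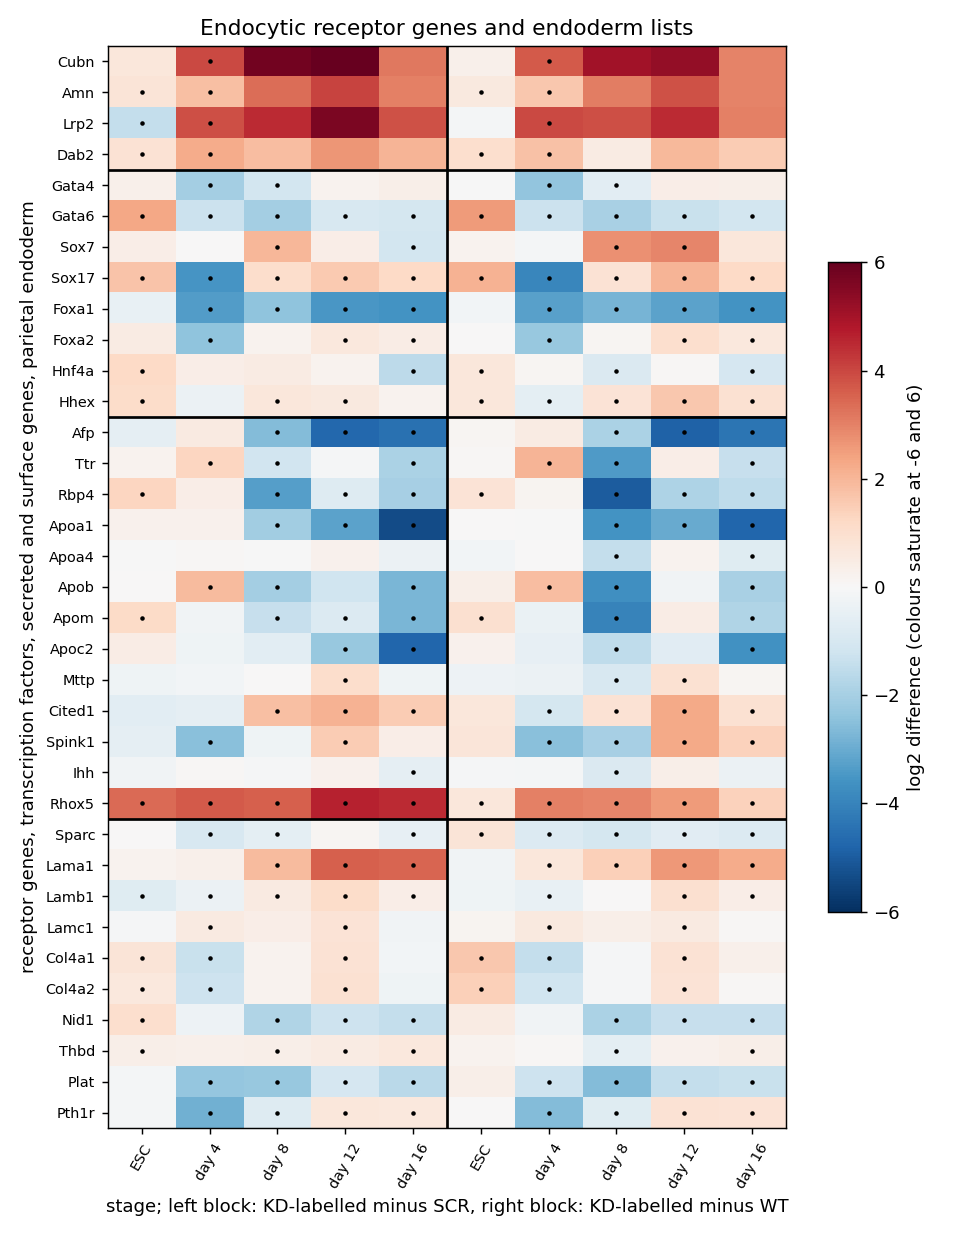
Heat map of log2 differences (colour, saturating at 6 in either direction) of KD-labelled minus SCR on the left and minus WT on the right, with stages across and genes down the page: the 4 endocytic genes, visceral endoderm transcription factors, visceral endoderm secreted and surface genes, and parietal endoderm genes. A dot marks a call by limma, and the 4 endocytic genes carry none on days 8, 12 and 16 because they were not tested there; on day 12 Cubn stands at 6.26 from SCR beside -4.7 for Afp.

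Markers of other cell types that can carry the 4 genes, or that set the lines apart, moved as well. The kidney tubule and intestine list, tissues that use cubilin and megalin, had mean levels of 4.12 to 4.3 in KD-labelled cells at all stages, with 8 of 8 markers at or below 6.18, the median of all gene values. In control EBs of day 16 the level was 5.34 in SCR and 5.28 in WT, and 3 of 8 were called up in KD-labelled EBs against both controls and 3 down (31.8% and 23.1% of all genes). The kidney transporter Slc5a2 was higher by 0.59 and 0.64, as were, by less and named after their values were seen, Slc34a1 (0.49 and 0.44) and Slc22a6 (0.23 and 0.32). The intestinal genes Lgals4 (-6.25 and -5.01), Fabp2 (-2.35 and -3.27) and Vil1 (-1.84 and -1.36) were lower.

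The macrophage list had mean levels of 4.37 to 4.76 in KD-labelled cells at the 5 stages. It stood at 7.37 and 7 in SCR and at 8.02 and 7.65 in WT EBs on days 12 and 16. On day 12, 0 of 6 markers were called up against both controls and 4 down (24.1% and 19.8% of all genes), and on day 16, 1 and 4 (31.8% and 23.1%). Csf1r stood at -3.77 and -4.09 on day 12. Its change since ESCs was 2.47 in KD-labelled EBs, called up by limma, against 6.51 in SCR and 6.87 in WT EBs. Cd68, a lysosomal protein, was higher than in both controls on day 4 (3.43 and 2.81) and day 8 (3.06 and 3.16).

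The fibroblast list stood at 5 to 5.52 in KD-labelled EBs of days 8 to 16, against 11.8 to 12.13 in SCR and 12.23 to 12.55 in WT EBs. On each of days 8, 12 and 16, 5 of 5 genes were called down against both controls (21.0%, 19.8% and 23.1% of all genes). Relative to KD-labelled ESCs, however, limma called Pdgfra up on these days (3.37, 3.62 and 2.73). Col3a1 was called up there on days 12 and 16 (2.16 and 2.81), and Col1a1, Dcn and Lum were not called up. The list of pluripotent cells stood at 11.11 to 11.42 in KD-labelled EBs of days 4 to 16, against 5.41 to 7.14 in SCR and 5.67 to 7.86 in WT EBs. Called up against both controls were 6 of 8 genes on day 4 (17.6% of all genes). On days 8, 12 and 16 they were 8 of 8 (23.1%, 24.1% and 31.8%). In ESCs, 0 of these 8 were called against both controls by limma (5.84% of all genes up and 6.28% down). The list stood at 11.78 in KD-labelled against 11.54 in SCR and 11.92 in WT ESCs. The trophoblast list stood at 5.57 to 6.19 in KD-labelled against 5.14 to 5.7 in SCR and 5.49 to 7.42 in WT cells, and the neuroepithelium list at 5.31 to 5.85, 5.4 to 6.32 and 5.22 to 6.17. On days 4, 8, 12 and 16, 2, 3, 2 and 1 of 7 trophoblast genes were called up against both controls and 2, 2, 1 and 3 down. Of 4 neuroepithelium genes, 1, 1, 0 and 2 were called up and 1, 1, 1 and 2 down. The shares of all genes were 17.6%, 23.1%, 24.1% and 31.8% up and 16.8%, 21.0%, 19.8% and 23.1% down. The part of these cell types in the levels of Cubn, Amn, Lrp2 and Dab2 was not tested.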

How the data were processed

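The 45 Affymetrix mouse expression arrays were hybridised with biotin-labelled RNA prepared from 100 ng of Trizol-extracted total RNA with a 3′ IVT kit, per the labels' protocols. The deposited table holds the authors' log2 signals for 45037 probe sets, between 1.82 and 14.26. The submitters' processing notes name Affymetrix Expression Console, Partek 6.6 and RMA, with no role or order given, and the values were used as deposited. Of the probe sets, 34945 had 1 gene symbol, 932 several and 9160 none in the platform annotation.

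The brightest probe set of each of 18193 genes was tested with limma 3.58.1 in R 4.3.3, with 15 group means over all 45 arrays and Benjamini-Hochberg adjustment over all genes within each comparison, and a gene was called at an adjusted p below 0.05. No filter on dim genes was set. Differences are on the log2 scale. Tests of the 4 genes between control groups on days 8, 12 and 16 had been planned, but those arrays entered the choice of the genes, so only the differences are given. The 4 genes and the 12 gene lists were chosen with earlier results of these data known. Named from each list were up to 4 called genes with the largest change, the 3 genes most like each member by Pearson r over the 15 group means, and the 5 most like their mean; genes outside this rule are said to be chosen after their values were seen. Promoters came from RefSeq (GRCm38.p6). Alternatives were array centring, cyclic loess, a filter on dim genes, a variance trend, a replicate block, other probe sets, only the compared arrays, and leaving out arrays. Listed genes beyond those counted as measured were not analysed here.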

Additional observations from a re-analysis of the deposited data

Results flagged for a closer look

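Changes since the ESC stage that differed between lines are set out here, each from limma's test of the difference of the changes. Between ESCs and day 4 the change in KD-labelled cells exceeded that in SCR cells by 3.28 log2 units for Cubn, 1.06 for Amn, 1.37 for Dab2 and 5.26 for Lrp2. It exceeded that in WT cells by 3.37 for Cubn, 1.01 for Amn and 4.12 for Lrp2. Groups of 3 arrays were not tested for single arrays that stand apart.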

How the results depend on the processing

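Of 36 tested values of the 4 genes, 21 kept their call under all alternatives, the 8 day 4 differences of KD-labelled EBs from controls among them, and 15 changed under at least 1. The cause of these changes was not tested. Array centring, cyclic loess, the filter on dim genes, a variance trend and leaving out the first 8-day arrays changed none of the 36 calls. With the mean of all probe sets 1 of the 4 genes was called in KD minus WT ESCs. With only the compared arrays 0 were called in SCR minus WT ESCs, where this setting called 66 of 18193 genes. Over the settings that leave out an array number these counts of the 4 genes ran between 0 and 2 and between 0 and 1. Of all 18193 genes, 1488 to 2763 and 371 to 1689 were called under these settings.

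The mean of all probe sets put Dab2 at 0.48 (KD minus SCR ESC), 0.46 (KD minus WT ESC) and 0.58 (SCR day 4 minus ESC), and turned Ap2a2 to 0.22 (KD minus SCR, day 8) and Sox1 to -0.16 (KD minus SCR, day 16). Dab2 1423805_at gave 0.23, -0.08 and 1.07 for the same 3 Dab2 values and -0.62 for KD minus WT on day 8. Dab2 1429693_at gave 0.33, 0.48 and 0.85. Dab2 1430604_a_at gave 0.48 and 0.45 for the first 2, 0.53 for KD day 4 minus ESC and 0.09 for WT day 4 minus ESC. Lrp2 1445901_at gave 0.22 (KD minus SCR ESC), 0.12 (SCR minus WT ESC), 0.08, -0.28 and -0.21 (day 4 minus ESC in KD-labelled, SCR and WT cells). For the change between ESC and day 4, the 3 Dab2 probe sets gave 0.93, 0.69 and 0.44 (KD minus SCR), and Lrp2 1445901_at gave 0.35 (KD minus SCR) and 0.29 (KD minus WT), none of them called. With only the compared arrays Cubn was called on day 4 against ESC in SCR (-0.63) and WT (-0.73), the Dab2 change of KD-labelled over WT cells was called (0.78), and Lrp2 in SCR minus WT ESCs was not (1.27).

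Replicate numbers follow the chip order in the labels, and whether they pair the arrays could not be told. Same-numbered arrays of other lines had correlations of their deviations between -0.3 and 0.48, with 22 of 45 over 0.1. Their median was 0.07, against -0.05 for arrays of other numbers. With the number as a replicate block none of the 36 calls changed, and Cubn in KD minus SCR on day 4 stood at 3.94 (adjusted p = 1e-12).

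Leaving out each array number in turn gave, for KD minus SCR ESC, 0.6 to 0.83 (Amn), 0.46 to 1.07 (Cubn) and 0.78 to 1 (Dab2), and for KD minus WT ESC, 0.52 to 0.69 (Amn) and 0.84 to 1.18 (Dab2). It gave -0.83 to -0.37 for Cubn in SCR day 4 minus ESC, 1.06 to 1.61 for Lrp2 in SCR minus WT ESC, and, for the change to day 4, 0.87 to 1.24 (Amn, KD minus SCR) and 0.48 to 1.07 (Dab2, KD minus WT).

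Some untested late values turned in sign. Lrp2 1445901_at gave -0.04 and -0.23 (KD days 12 and 16 minus ESC, against 3.19 and 1.95 with the brightest probe set) and 0.08 and 0.01 (SCR minus WT, days 8 and 12), Dab2 1429693_at gave 0.08 (SCR minus WT, day 16) and Cubn 1426990_at gave -0.14 (SCR minus WT change, day 16). Cyclic loess put Amn at 0.01 (SCR minus WT, day 16) and centring put Cubn at -0.14 (SCR day 12 minus ESC). Leaving out each array number in turn gave Cubn -0.1 to 0.57 and -0.07 to 0.47 (SCR days 8 and 12 minus ESC). In SCR minus WT on day 16 it gave -0.25 to 0.3 (Amn) and -0.57 to 0.09 (Cubn), and for their changes since ESC -0.11 to 0.61, with -0.07 between (Amn), and -0.4 to 0.57 (Cubn).

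Centring moved the median of all genes by 0.19 (KD minus SCR) and 0.2 (KD minus WT) on day 16, and the share of rises among called genes there was 71.7% and 72.6%, against 59.7% and 57% as deposited. Cyclic loess gave 48.4% for KD minus SCR. Centring also put this share at 60.4% in KD minus WT ESCs (47% as deposited), 32.2% in KD-labelled EBs of day 4 against ESCs (52.1%), 53.3% in SCR minus WT EBs of day 4 (31.5%) and 39.6% in the KD minus SCR change to day 4 (51.7%). In KD-labelled EBs of day 12 against ESC it called 12131 genes, against 7899. With only the compared arrays 1781 genes were called in KD minus WT ESCs, against 3355, and in SCR minus WT ESCs and day 4 EBs 66 and 80, against 1847 and 352.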
